A study of Mus musculus with 6 samples.

Results

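The genes described here are the 9 genes of epidermal acylceramide and lamellar body lipid synthesis, Elovl4, Cers3, Cyp4f39, Pnpla1, Ugcg, Abca12, Alox12b, Aloxe3 and Sdr9c7, taken by symbol from a table of 35275 mouse genes. All 9 had enough counts to enter the test, as did 15720 genes in all. RNA was sequenced from the epithelial region of C57BL/6 back skin, in 6 libraries. In 3 libraries the mice lacked interleukin-33 (IL-33 KO), an alarmin cytokine kept in epithelial nuclei, and in 3 they were wild type (WT). Mice of both genotypes had been treated with dinitrofluorobenzene (DNFB), a hapten that provokes allergic contact dermatitis, given at 0.25% in acetone and olive oil 3 times a week for 22 days. No untreated skin was analysed here, and the age and sex of the mice and the way the KO allele was made are not given in the sources used here. The labels number the libraries within a genotype but do not say that each is a separate mouse, so the p-values measure the spread between libraries, which may be technical in part.

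The water barrier of the skin is a stack of lipid sheets between dead corneocytes, and its most characteristic lipids are acylceramides, ceramides with an ultra-long fatty acid that carries linoleic acid at its far end. Granular keratinocytes build them stepwise, store them as glucosylceramides in lamellar bodies and secrete them. The linoleate is oxidised, and the ceramide is then bound to the protein envelope of the corneocyte. Inherited loss of most of these genes causes ichthyosis in humans or a lethal loss of skin water in mice.

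The libraries held 20459574 to 24359612 counts, and levels are given below as CPM, counts divided by a library size that was scaled for composition, with the values of a genotype in the order of its replicates 1, 2 and 3. Il33 itself had only 0.885, 0.928 and 0.532 CPM in the IL-33 KO libraries, against 196.8, 134.8 and 111 CPM in the WT libraries, as the genotype labels require. All 20 suprabasal and all 10 basal keratinocyte markers were detected, as the labelled tissue requires, and the basal markers summed to 22972 to 32661 CPM in IL-33 KO and 27673 to 43422 CPM in WT. Markers of dermal and follicular tissue were present too: the 19 hair follicle markers in the table summed to 10726 to 22285 CPM in IL-33 KO and 2785 to 5942 CPM in WT, and 10 fibroblast markers summed to 12320 to 14346 CPM in IL-33 KO and 13104 to 23363 CPM in WT. Muscle markers, of which 6 of 10 were tested, summed to 12.4 to 168.9 CPM in IL-33 KO and 8.75 to 9.56 CPM in WT. Adipocyte markers summed to 815 to 1170 CPM in IL-33 KO and 211 to 886 CPM in WT, and leukocyte markers to 2449 to 3143 CPM in IL-33 KO and 2585 to 7742 CPM in WT. In such bulk samples, fewer cells of a type and less RNA per cell cannot be told apart.

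The fitted levels of the 9 genes were lower in IL-33 KO than in WT, by most in Alox12b (48.7% of the WT level), Aloxe3 (60.5%) and Sdr9c7 (64.2%), the genes of linoleate oxidation, and by least in Elovl4 (93.2%). None of these differences passed a test against the spread between libraries once p was adjusted over all tested genes. In edgeR's quasi-likelihood test 0 of 9 passed an adjusted p of 0.05, where 0.0191% of all tested genes passed and 0.00636% passed as lower. DESeq2 also called 0 of 9, against 1.26% of all genes, and limma-voom 0 of 9, against 0.0700%. At an unadjusted p under 0.05 edgeR had 1 of 9, Alox12b, where 9.02% of all genes had one and 4.15% had one with a lower level, and DESeq2 had 3 of 9, where 6.63% of all genes had one. The CPM ranges of the genotypes overlapped for all 9 genes, while 13.9% of all tested genes had ranges without overlap and 6.47% lay wholly lower. The fitted log2 fold change (IL-33 KO over WT) was below 0 for 9 of 9 genes, as it was for 52.0% of all tested genes, although 6 of the 9 turned above 0 when set against suprabasal markers, as described further on. The median of the 9 values was -0.31, and that of all tested genes -0.01. An exact two-sided permutation test of each gene over the 6 libraries gave p of 0.2 to 0.6, adjusted to 0.6 for each of the 9, where the smallest p that 3 against 3 allows is 0.1.

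**Figure D1:**
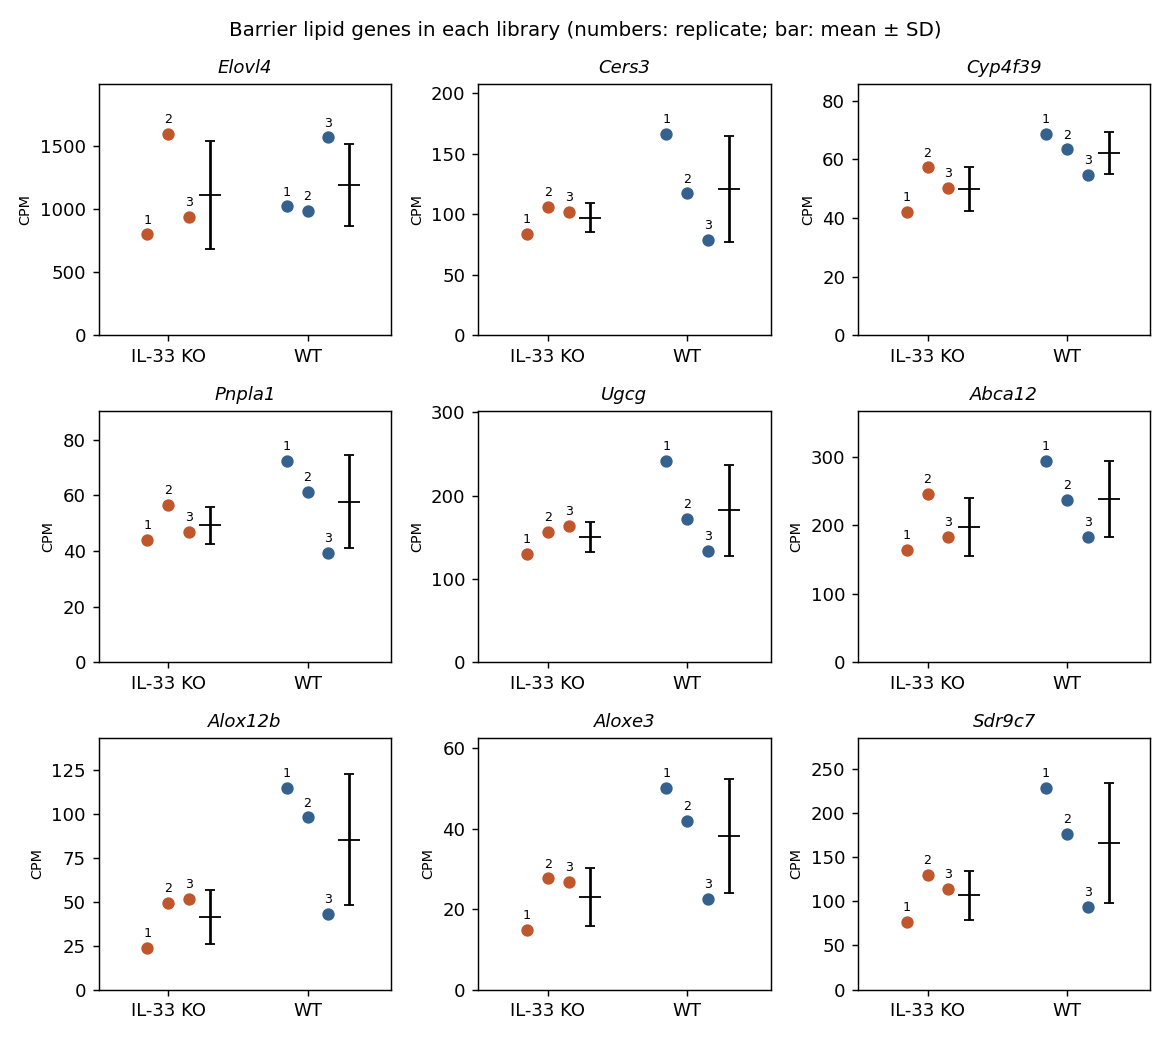
CPM (y axis, linear from 0) of each of the 9 genes in the 3 IL-33 KO and the 3 WT libraries. Points are libraries with their replicate number, and bars are the mean ± SD (n = 3). In 8 of the panels WT 1 is the highest point and WT 3 lies at or near the level of the IL-33 KO points, and in the Elovl4 panel IL-33 KO 2 and WT 3 stand above the other libraries.

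First of the 9 genes in pathway order is Elovl4, which encodes the elongase that makes the ultra-long acyl chain. Elovl4 (ENSMUSG00000032262, mm10 chromosome 9, 83778692 to 83806277, minus strand) stood at 801, 1599 and 942 CPM in the IL-33 KO libraries, against 1023, 988 and 1572 CPM in the WT libraries. One library of each genotype, IL-33 KO 2 and WT 3, was high, and the genotypes overlapped fully. The log2 fold change was -0.10 ± 0.30 (SE), its 95% interval ran from -0.79 to 0.59, and edgeR gave an adjusted p of 0.928. Its sign turned in 3 of the 6 fits with 1 library left out, which gave 0.09 (IL-33 KO 1 left out), 0.0081 (IL-33 KO 3) and 0.15 (WT 3).

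Cyp4f39 encodes the mouse omega-hydroxylase that puts the hydroxyl group on the ultra-long chain, to which linoleate is later attached. Cyp4f39 (ENSMUSG00000061126, chromosome 17, 32468462 to 32492479, plus strand) had 42.1, 57.3 and 50.3 CPM in the IL-33 KO libraries and 68.7, 63.4 and 54.6 CPM in the WT libraries. Of the 9 genes it varied least, 1.63-fold between its lowest and highest library, and only WT 3 fell within the IL-33 KO range. Its log2 fold change was -0.32 ± 0.15 (SE; adjusted p 0.576 in edgeR), and -0.21 without IL-33 KO 1.

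Cers3, the ceramide synthase that joins the ultra-long chain to a sphingoid base, had 84, 106 and 101.6 CPM in the IL-33 KO libraries, against 166.2, 117.2 and 78.9 CPM in the WT libraries (ENSMUSG00000030510, chromosome 7, 66743504 to 66823692, plus strand). WT 3 was the lowest of all 6 libraries and WT 1 the highest. IL-33 KO and WT differed by a log2 fold change of -0.31 ± 0.25 (SE; adjusted p 0.714 in edgeR), and it came to -0.01 without WT 1 and -0.55 without WT 3. Pnpla1 encodes the transacylase that moves linoleate from triglyceride onto the ceramide. Pnpla1 (ENSMUSG00000043286, chromosome 17, 28858411 to 28890308, plus strand) had 44.1, 56.6 and 47 CPM in the IL-33 KO libraries and 72.3, 61.3 and 39.5 CPM in the WT libraries. Again WT 3 lay below every IL-33 KO library, and the log2 fold change was -0.23 ± 0.22 (SE; adjusted p 0.757 in edgeR). A short antisense gene, Pnpla1os, overlaps it but had at most 9 counts in any library, and no other listed gene overlaps any of the 9.

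Ugcg, which adds glucose to ceramides and so makes the form that lamellar bodies store, had 130.1, 156.7 and 163.7 CPM in the IL-33 KO libraries, against 241, 172.4 and 133.3 CPM in the WT libraries (ENSMUSG00000028381, chromosome 4, 59189257 to 59222833, plus strand). WT 1 and WT 2 lay above the 3 IL-33 KO libraries, and WT 3 fell between IL-33 KO 1 and 2. The log2 fold change was -0.28 ± 0.22 (SE; adjusted p 0.706 in edgeR). Abca12, the transporter that loads glucosylceramide into lamellar bodies, had 164.2, 245.8 and 182.8 CPM in the IL-33 KO libraries and 293.5, 237 and 182.9 CPM in the WT libraries (ENSMUSG00000050296, chromosome 1, 71242276 to 71414910, minus strand). IL-33 KO 3 and WT 3 had nearly the same level, and the log2 fold change was -0.27 ± 0.22 (SE; adjusted p 0.716 in edgeR). Single libraries moved these values: without WT 1 the log2 fold change came to -0.02 for Ugcg, -0.09 for Abca12 and -0.03 for Pnpla1, and without WT 3 to -0.46 for Ugcg, -0.43 for Abca12 and -0.44 for Pnpla1. Leaving out IL-33 KO 1 gave -0.15 for Abca12, and leaving out IL-33 KO 2 gave -0.46.

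The enzymes that oxidise the linoleate of finished acylceramides had the largest fitted differences of the 9 genes. Alox12b, the 12R-lipoxygenase that starts this oxidation, had 23.7, 49.5 and 51.5 CPM in the IL-33 KO libraries and 114.7, 98.2 and 43.3 CPM in the WT libraries (ENSMUSG00000032807, chromosome 11, 69156989 to 69169792, plus strand). WT 1 and WT 2 were well above the IL-33 KO libraries, IL-33 KO 1 was lowest, while IL-33 KO 2 and 3 both stood above WT 3. Its fitted level in IL-33 KO came to 48.7% of that in WT. The log2 fold change was -1.04 ± 0.40 (SE), its 95% interval ran from -1.95 to -0.13, and edgeR gave an adjusted p of 0.527. Over 19 other fits its adjusted p ran from 0.0851 (without both IL-33 KO 1 and WT 3, a choice made after seeing the data) to 0.958 (without IL-33 KO 1), and its log2 fold change stayed below 0 in each. The adjusted p was 0.0930 with WT 3 left out, where the log2 fold change was -1.36, whereas that value was -0.76 without IL-33 KO 1 and -0.77 without WT 1.

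Aloxe3, which isomerises the product of Alox12b, had 14.8, 27.6 and 26.8 CPM in the IL-33 KO libraries, against 50, 42 and 22.5 CPM in the WT libraries (ENSMUSG00000020892, chromosome 11, 69125896 to 69149115, plus strand). Its libraries fell in nearly the same order as those of Alox12b, with WT 3 again inside the IL-33 KO range. For Aloxe3 the log2 fold change was -0.73 ± 0.33 (SE; adjusted p 0.564 in edgeR), and it came to -0.48 without WT 1 and -0.998 without WT 3. Sdr9c7, the dehydrogenase that acts on the oxidised linoleate before the ceramide is bound to the corneocyte, had 76.4, 129.6 and 113.6 CPM in the IL-33 KO libraries and 227.8, 176.4 and 93.9 CPM in the WT libraries (ENSMUSG00000040127, chromosome 10, 127898518 to 127911761, plus strand). WT 1 and WT 2 lay above the IL-33 KO libraries, and WT 3 lay between IL-33 KO 1 and 3. Its log2 fold change was -0.64 ± 0.32 (SE; adjusted p 0.596 in edgeR), and it came to -0.34 without WT 1 and -0.93 without WT 3. These 3 genes also varied most over the 6 libraries, by 4.84-fold for Alox12b, 3.38-fold for Aloxe3 and 2.98-fold for Sdr9c7.

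**Figure D2:**
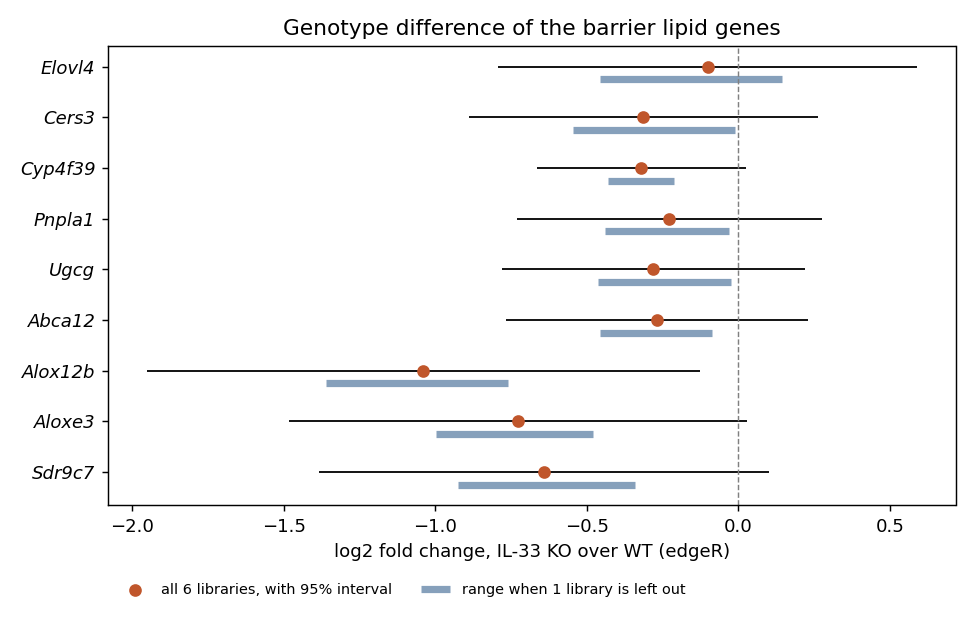
Log2 fold change of each gene, IL-33 KO over WT (x axis), for the 9 genes in pathway order (y axis). Points and thin lines are the edgeR estimate from all 6 libraries with its 95% interval, and thick bars span the 6 estimates with 1 library left out. The interval of Alox12b, -1.95 to -0.13, is the one that does not reach 0, and the thick bar of Elovl4 crosses 0.

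Aloxe3 and Alox12b are neighbours on chromosome 11 in the same orientation, with 7873 bases between them, and Alox8, another lipoxygenase gene, follows 14139 bases beyond Alox12b on the opposite strand. The level of Alox12b per gene length was 3.09, 3.45 and 3.70 times that of Aloxe3 in the IL-33 KO libraries, and 4.42, 4.50 and 3.71 times in the WT libraries. The ratio thus lay below all WT values in the 3 IL-33 KO libraries, though IL-33 KO 3 and WT 3 were nearly equal, with an exact two-sided permutation p of 0.1, the smallest possible, and 0.2 adjusted over the 2 ratios computed. The other ratio, Elovl4 over Cers3, was 10.3, 16.3 and 10 in the IL-33 KO libraries and 6.67, 9.14 and 21.6 in the WT libraries (exact permutation p = 0.8, adjusted 0.8). Alox8 differed in direction from its neighbours, at 33.1, 18.6 and 16.2 CPM in the IL-33 KO libraries and 6.80, 4.02 and 11.4 CPM in the WT libraries, without overlap. Ranges without overlap were found in 13.9% of all tested genes. The log2 fold change of Alox8, 1.61 ± 0.40 (SE), did not pass in edgeR (adjusted p 0.389) and passed in DESeq2 (adjusted p 0.00560).

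The start regions of Alox12b and Sdr9c7 are shown because these genes had large fitted differences, and that of Elovl4 because its profile went its own way. Each sequence is the 250 bases before the RefSeq start on the gene's strand (GRCm38.p6, a patch release of the mm10 assembly), at chr11:69156822-69157071 (plus), chr10:127898285-127898534 (plus) and chr9:83806306-83806555 (minus). Capitals mark matches to 5 motifs, each searched on both strands and allowed to overlap. The AP-1 motif was searched as TGANTCA. The motif of GATA factors was searched as AGATAA. The motif of KLF and SP factors was searched as GGGNGGG. The TATA box was searched as TATAAA. The last motif was the CCAAT box.
Alox12b: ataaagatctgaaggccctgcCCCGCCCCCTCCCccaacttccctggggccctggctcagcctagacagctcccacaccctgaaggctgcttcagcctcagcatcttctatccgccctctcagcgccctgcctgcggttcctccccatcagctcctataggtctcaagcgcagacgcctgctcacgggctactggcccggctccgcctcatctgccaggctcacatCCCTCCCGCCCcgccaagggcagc
Sdr9c7: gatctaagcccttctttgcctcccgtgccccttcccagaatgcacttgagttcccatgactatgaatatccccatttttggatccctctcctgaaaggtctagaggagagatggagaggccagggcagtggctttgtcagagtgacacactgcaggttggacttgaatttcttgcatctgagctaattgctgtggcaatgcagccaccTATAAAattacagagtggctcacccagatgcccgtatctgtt
Elovl4: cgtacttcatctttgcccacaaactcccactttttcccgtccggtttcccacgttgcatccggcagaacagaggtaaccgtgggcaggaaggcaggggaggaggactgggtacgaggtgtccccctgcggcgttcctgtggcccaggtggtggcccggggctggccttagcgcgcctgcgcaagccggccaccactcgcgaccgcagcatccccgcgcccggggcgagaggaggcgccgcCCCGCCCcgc
The Alox12b window holds 4 GGGNGGG matches in 2 overlapping pairs, the nearer pair beginning 24 and 20 bases before the RefSeq start. The deposited table places the start of Alox12b 83 bases away from RefSeq's, inside this window. By that start, the nearer pair lies within the gene and not before it. The Sdr9c7 window holds a TATA box that begins 42 bases before the RefSeq start, and the deposited table places the start 17 bases away from RefSeq's. The Elovl4 window holds 1 GGGNGGG match and no TATA box, and 69.6% of its bases are G or C, against 49.6% in Sdr9c7 and 66.0% in Alox12b. The deposited start of Elovl4 lies 28 bases from RefSeq's. Of the 9 genes 8 had a RefSeq window, and Aloxe3 is named only. GGGNGGG occurred in 4 of these 8 and in 44.8% of 32851 mouse windows of that length, TATAAA in 1 of 8 and 12.4%, and CCAAT in 1 of 8 and 33.8%. TGANTCA occurred in 0 of 8 and 6.75%, and AGATAA in 0 of 8 and 9.99%. The windows of Cyp4f39 and Ugcg describe RefSeq starts that lie 15739 and 293 bases from those of the deposited table. A match is a description of letters and not a site of binding.

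Levels between genes were compared as FPKM, in which a count is divided by gene length and library total. Elovl4 was far above the rest, at 379 ± 135 FPKM in IL-33 KO and 392 ± 135 FPKM in WT (SD, n = 3 each). It alone made up 61.0% to 70.9% of the summed FPKM of the 9 genes in the IL-33 KO libraries and 50.1% to 74.9% in the WT libraries. In IL-33 KO Ugcg (38.4 ± 3.28 FPKM), Sdr9c7 (38.0 ± 8.53 FPKM), Cyp4f39 (32.0 ± 3.81 FPKM) and Cers3 (30.7 ± 2.59 FPKM) followed, and neighbours in this order overlapped over their 3 libraries. Below Cers3, without overlap, came Abca12 (22.1 ± 4.18 FPKM), Alox12b (17.4 ± 6.05 FPKM) and Pnpla1 (11.3 ± 1.20 FPKM), again with overlap between neighbours, and Aloxe3 was lowest without overlap (5.03 ± 1.42 FPKM). In WT Sdr9c7 led this middle group with a mean of 55.3 FPKM and a range of 34.3 to 73.9 FPKM, and Alox12b, at 33.5 ± 13.2 FPKM, ranked above Abca12 with overlapping ranges. From Sdr9c7 down to Abca12 neighbours in the WT order overlapped, and Abca12 lay above Pnpla1 without overlap. Pnpla1 and Aloxe3 were the lowest genes in both genotypes, at 12.4 ± 2.93 and 7.80 ± 2.52 FPKM in WT.

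**Figure D3:**
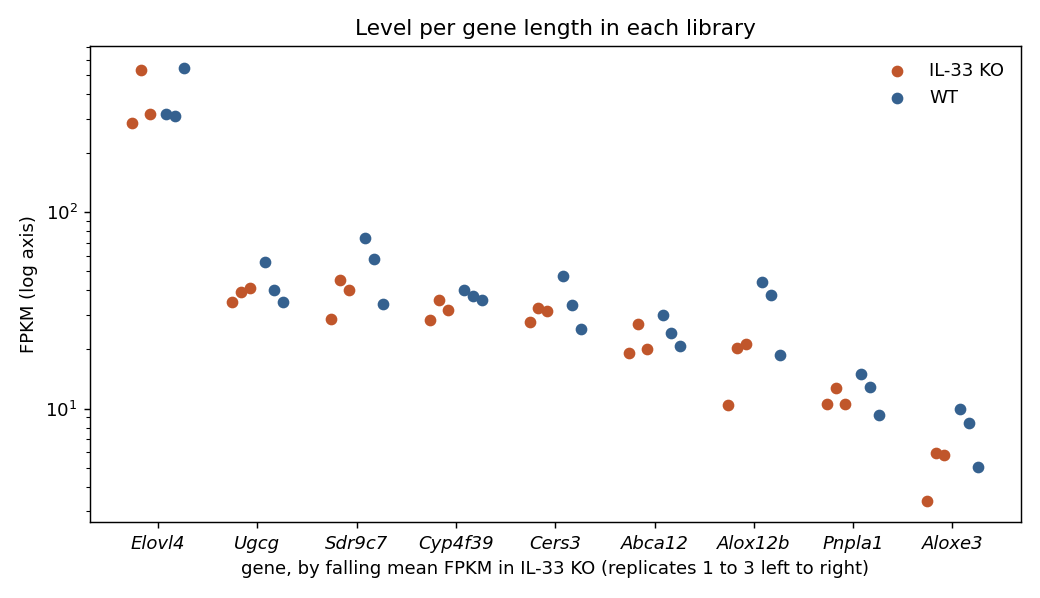
FPKM (y axis, log scale) of the 9 genes in each IL-33 KO and WT library, genes ordered by their mean in IL-33 KO. Points are libraries, replicates 1 to 3 from left to right within a genotype. Elovl4 lies between 286.5 and 548 FPKM, above all other genes, and Aloxe3 lies between 3.39 and 9.95 FPKM.

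The 9 genes were followed across libraries as log2 CPM minus the gene's own mean, so that a value of 1 is a doubling over that mean. Averaged over the 9, this profile was -0.56, 0.07 and -0.13 in the IL-33 KO libraries and 0.56, 0.28 and -0.22 in the WT libraries. IL-33 KO 1 was the low extreme and WT 1 the high extreme, and WT 3 lay below both IL-33 KO 2 and IL-33 KO 3. Likeness of profiles was measured as the root mean square (RMS) difference over the 6 libraries, on the log2 scale. The closest pair was Cers3 and Ugcg (0.079), followed by Abca12 with Pnpla1 (0.11) and Aloxe3 with Sdr9c7 (0.11). The most distant pair was Alox12b and Elovl4 (0.83).

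**Figure D4:**
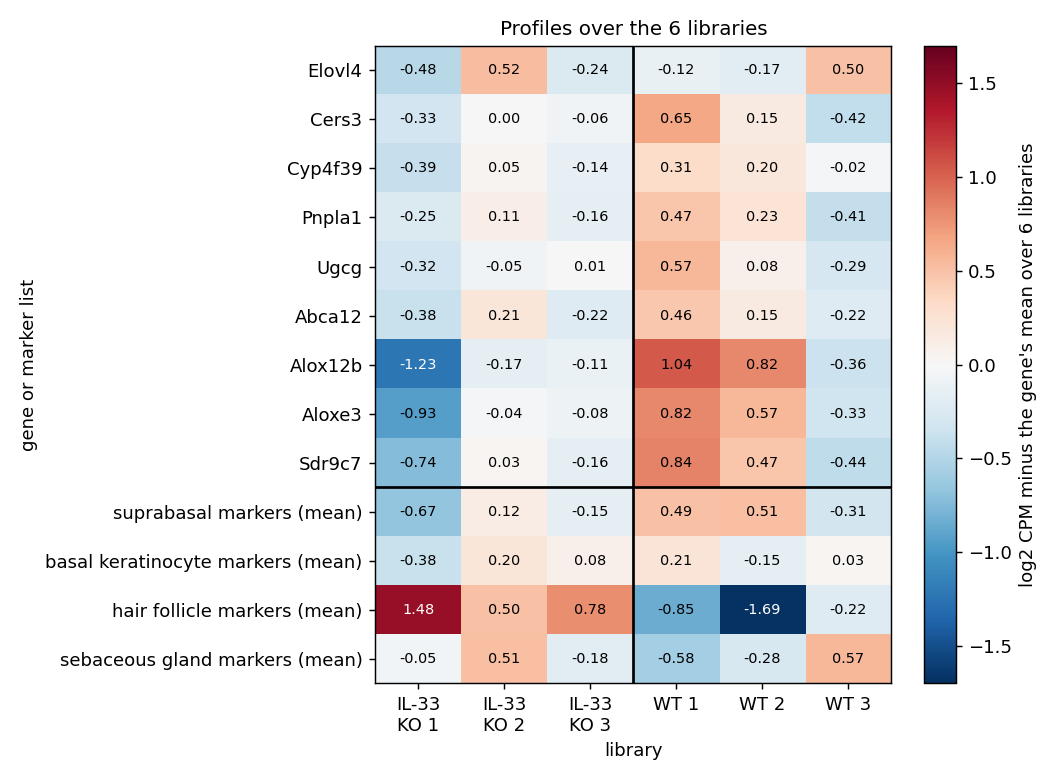
Log2 CPM of each of the 9 genes minus its mean over the 6 libraries (colour and printed values), with the mean of the same quantity over 4 marker lists below the line. Columns are libraries, IL-33 KO left of WT. Of the 9 genes, 8 are highest in WT 1, while Elovl4 is highest in IL-33 KO 2 (0.52) and WT 3 (0.50), as are the sebaceous gland markers (0.51 and 0.57).

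Among 9946 other genes with a mean of at least 10 CPM, those whose profile lay nearest to the mean of the 9 included Cgref1 (0.053), Fam57a (0.079), Klf4 (0.084) and Stx19 (0.090), where the median candidate was at 0.39. Klf4 encodes a transcription factor that newborn mice need for the skin barrier. Klf4 had 438.8, 600.3 and 591.5 CPM in the IL-33 KO libraries and 836.2, 786.5 and 535.8 CPM in the WT libraries. It was thus highest in WT 1 and lowest in IL-33 KO 1, with WT 3 next above IL-33 KO 1. It did not pass in edgeR (adjusted p 0.605). Elovl4 had other nearest genes, by the same measure applied after its values were seen: Slc27a4 (0.093), Ptplb (0.12), Rdh1 (0.13), Dhrs7 (0.14) and Fam213a (0.14), where the median candidate was at 0.42. Slc27a4 encodes a transporter and activating enzyme of long fatty acids, and Ptplb a dehydratase of the elongation cycle in which Elovl4 takes part. Slc27a4 had 228.8, 416 and 261.5 CPM in the IL-33 KO libraries and 263.3, 239 and 377.9 CPM in the WT libraries, with the same high libraries as Elovl4.

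Markers of skin compartments varied over the same libraries. The 20 suprabasal and cornified keratinocyte markers had a mean profile of -0.67, 0.12 and -0.15 in the IL-33 KO libraries and 0.49, 0.51 and -0.31 in the WT libraries, in nearly the order of the 9 lipid genes. Their summed level was 16061 to 33636 CPM in IL-33 KO and 25358 to 51053 CPM in WT. The log2 fold change was below 0 for 19 of the 20, 0 of 20 passed in edgeR or DESeq2, 4 had an unadjusted p under 0.05 in edgeR (1 higher and 3 lower), none was at 0 in all libraries, and the median was -0.50. The 15 sebaceous gland markers, none at 0 in all libraries, had a mean profile of -0.05, 0.51 and -0.18 in the IL-33 KO libraries and -0.58, -0.28 and 0.57 in the WT libraries, high in the 2 libraries that were high in Elovl4. They summed to 2076 to 3618 CPM in IL-33 KO and 1464 to 3882 CPM in WT, with 7 above and 8 below 0, 0 of 15 passing in edgeR or DESeq2 and 1 with an unadjusted p under 0.05 in edgeR. The 19 tested hair follicle markers were all above 0, and their log2 fold changes had a median of 1.85. Of the 19, 0 passed in edgeR, where 18 had an unadjusted p under 0.05, and 13 passed in DESeq2. Over all tested genes, 9.02% had an unadjusted p under 0.05 in edgeR and 1.26% passed in DESeq2. The same shares apply to the suprabasal and sebaceous lists. WT 3, at -0.22, was nearest to IL-33 KO in the hair follicle list too, against -0.85 in WT 1 and -1.69 in WT 2. The part of these cell types in the values of the 9 genes was not tested.

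Set against keratinocyte markers of the same library, the 9 genes fell on both sides of 0. Such a divisor takes the same log2 amount from each gene of a library, so it leaves the differences between genes as they were. The suprabasal markers had a median log2 fold change of -0.50, which moves all 9 genes up. The 6 genes that came to lie above 0 are those with the smallest fitted differences, so the signs restate the earlier ranking. Relative to the mean log2 CPM of the 20 suprabasal markers, a measure added after seeing the data, the difference between IL-33 KO and WT was -0.54 for Alox12b, -0.24 for Aloxe3 and -0.12 for Sdr9c7. It was above 0 for the other 6, from 0.14 for Cyp4f39 through 0.20 for Abca12 and Cers3, 0.21 for Ugcg and 0.27 for Pnpla1 to 0.33 for Elovl4. With each library left out in turn the same 6 genes stayed above 0, and Sdr9c7 joined them, at 0.02, without WT 1. Relative to the single count of Krt10, the main keratin of suprabasal cells, the same 3 genes lay below 0 and the same 6 above it, but here 1 library decided: Krt10 had 63495 counts in IL-33 KO 1, against 153303 to 236923 in the other 5 libraries, and without IL-33 KO 1 only Elovl4 was above 0, while without WT 1 all but Alox12b were. Per 1000 Krt10 counts Alox12b had 8.85, 6.17 and 6.95 counts in the IL-33 KO libraries and 14.7, 9.49 and 7.07 in the WT libraries. Pnpla1 had 16.5, 7.06 and 6.33 per 1000 in the IL-33 KO libraries and 9.23, 5.92 and 6.44 in the WT libraries. These differences carry no test. Except for Pnpla1 against the suprabasal mean, where each IL-33 KO library lay above each WT library, the genotypes overlapped for each gene with either divisor. The margin for Pnpla1 was narrow, with centred log2 values of -0.0097 in IL-33 KO 2 and -0.028 in WT 1.

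**Figure D5:**
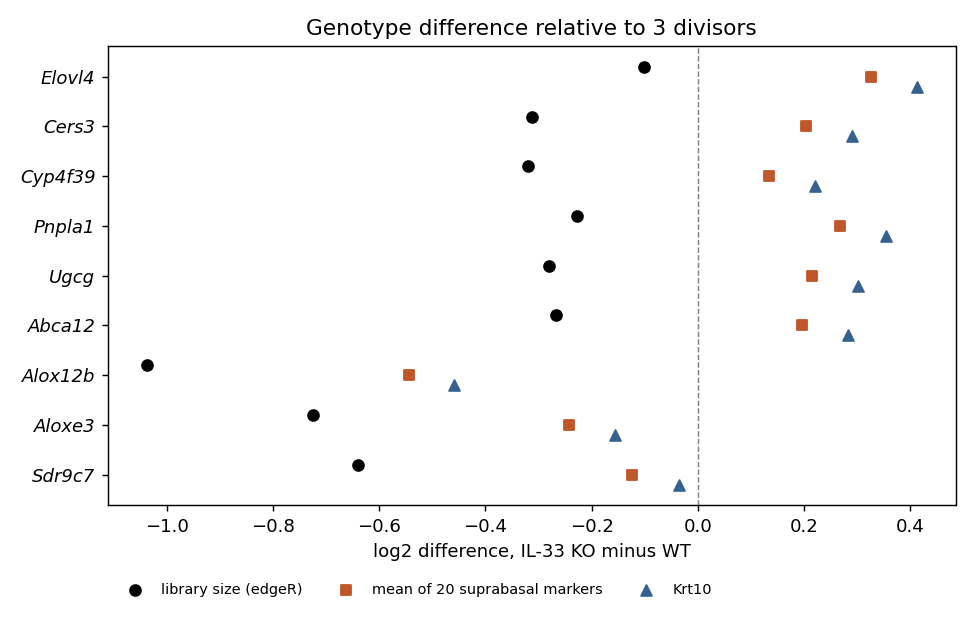
Difference between IL-33 KO and WT on the log2 scale (x axis) for the 9 genes (y axis), relative to library size (circles, the edgeR fold change), to the mean of 20 suprabasal markers (squares) and to the Krt10 count (triangles). All 9 circles lie below 0, whereas the squares and triangles of Alox12b, Aloxe3 and Sdr9c7 lie below 0 and those of the other 6 genes above it. Each divisor moves all 9 genes by nearly the same amount.

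The wider pathway gave 0 calls in edgeR as well, and 3 in DESeq2, where 1.26% of all genes were called. These were Sptssb among 19 general sphingolipid synthesis genes, Alox8 among 6 other lipoxygenase pathway genes and Gata3 among 20 regulators. DESeq2 called no other acylceramide and cornified lipid gene and no ceramide processing and breakdown gene. Of 26 other acylceramide and cornified lipid genes 24 were tested, with 17 below and 7 above 0 and a median log2 fold change of -0.16. In edgeR 1 of the 24 had an unadjusted p under 0.05, against 9.02% of all tested genes. That 1 was Ephx3, an epoxide hydrolase gene that acts on oxidised linoleate, which had 46.4, 58.3 and 51.8 CPM in the IL-33 KO libraries and 91.2, 80.9 and 50.7 CPM in the WT libraries (log2 fold change -0.51 ± 0.21 SE, adjusted p 0.547 in edgeR). Lipm, a lipase gene of granular keratinocytes, followed with a log2 fold change of -0.40 ± 0.18 (SE; adjusted p 0.563). In Ephx3 as in Alox12b, WT 3 lay inside the IL-33 KO range.

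Of 19 general sphingolipid synthesis genes, which are not specific to the epidermis, 10 lay below and 9 above 0 with a median of -0.05, near the median of all genes. In edgeR 1 higher and 4 lower had an unadjusted p under 0.05, where 9.02% of all tested genes had one in either direction. Sptssb, a small subunit of serine palmitoyltransferase, had 9.36, 4.98 and 4.69 CPM in the IL-33 KO libraries and 2.22, 2.18 and 3.11 CPM in the WT libraries. Sptlc3, a large subunit of the same enzyme, went the other way, with 18.8, 26.1 and 20.1 CPM in the IL-33 KO libraries and 31.7, 42.0 and 28.0 CPM in the WT libraries. Neither subunit overlapped between the genotypes. Of the 19 genes of this list, 2 lay wholly higher and 5 wholly lower in IL-33 KO. Over all tested genes, 13.9% had ranges without overlap and 6.47% lay wholly lower. The log2 fold change was 1.34 ± 0.33 (SE; adjusted p 0.376 in edgeR, 0.0191 in DESeq2) for Sptssb and -0.64 ± 0.19 (SE; adjusted p 0.448 in edgeR, 0.175 in DESeq2) for Sptlc3.

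Of 12 ceramide processing and breakdown genes 11 were tested, 8 below and 3 above 0, with a median of -0.18. In edgeR 1 of the 11 had an unadjusted p under 0.05, against 9.02% of all tested genes. The lowest p belonged to Asah2, a neutral ceramidase gene (log2 fold change -0.53 ± 0.21 SE, adjusted p 0.539 in edgeR). Of the 6 other lipoxygenase pathway genes 2 lay above 0, Alox8 and Alox12e (the second named after its value was seen), and Alox15 had at most 2.53 CPM in any library. Of 20 regulators of the keratinocyte barrier program 13 lay below and 7 above 0, with a median of -0.09. In edgeR 1 of the 20 had an unadjusted p under 0.05, against 9.02% of all tested genes. Gata3, which mouse epidermis needs for its lipid barrier and which the inner root sheath of the hair follicle also uses, had 97.6, 103.8 and 120.3 CPM in the IL-33 KO libraries and 50.7, 72.4 and 67.1 CPM in the WT libraries. It did not overlap between the genotypes, the only 1 of the 20 regulators to do so, where 13.9% of all tested genes did not overlap. The log2 fold change of Gata3, 0.76 ± 0.16 (SE), passed in DESeq2 (adjusted p 0.00916) and did not pass in edgeR (adjusted p 0.302). Grhl3, a factor of terminal differentiation in mouse epidermis, had 54.1, 78 and 81.9 CPM in the IL-33 KO libraries and 152, 101 and 69.8 CPM in the WT libraries (log2 fold change -0.59 ± 0.28 SE, adjusted p 0.578 in edgeR). Its order over the libraries was close to that of Alox12b and Sdr9c7, with WT 1 highest and IL-33 KO 1 lowest.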

How the data were processed

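The authors deposited whole-number read counts per gene, and a second table with the FPKM of each gene, for 6 libraries named by genotype and replicate. STAR, RSEM and mm10 are named in the submitters' processing notes. Versions, strand setting and the treatment of multi-mapped reads are not given in the sources used here. The deposited FPKM equal count over listed gene length and column total to a relative difference of 2.782e-07.

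The test on the counts used edgeR 4.0.16 under R 4.3.3 (filterByExpr, TMM, quasi-likelihood F test, two-sided, Benjamini-Hochberg adjustment over 15720 genes, threshold 0.05). Standard errors and 95% intervals came from the F statistic. CPM use TMM-scaled library sizes, and profiles use log2 CPM with a prior count of 2. The biological coefficient of variation was 21.3%. The fits were checked on simulated counts, but their power to detect differences of the size seen in the 9 genes is not given here. Alternatives used DESeq2 1.42.0, limma 3.58.1, other scalings and filters, log2(FPKM + 1) and log2(FPKM + 0.1), a replicate block and libraries left out. All pairs of libraries differed by more than sampling noise (chi-square per degree of freedom of at least 31.7). The 9 genes and the lists were chosen with earlier results of these data known. All 9 genes were named, and of each other pathway list the 2 genes with the smallest p, since none passed. One gene that this rule and the profile ranking named is not reported here. The gene Hacd3 was matched as Ptplad1, and Krt85 was not matched.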

Additional observations from a re-analysis of the deposited data

How the results depend on the processing

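In each of 19 alternative fits 0 of the 9 genes passed an adjusted p of 0.05. At 0.1 the fit to all libraries also gave 0 of 9, while Alox12b lay under it without WT 3 (0.0930) and without both IL-33 KO 1 and WT 3 (0.0851). Of the fitted values, 167 of 171 kept their sign. The 4 that turned were all of Elovl4: its log2 fold change was 0.09 (IL-33 KO 1 left out), 0.0081 (IL-33 KO 3), 0.15 (WT 3) and 0.35 (IL-33 KO 1 and WT 3 together, a setting chosen after seeing the data). Over the fits with 1 library left out it ran from -0.46 to 0.15. Relative to Krt10, 6 genes turned: Abca12 (0.28), Cers3 (0.29), Elovl4 (0.41), Pnpla1 (0.35), Cyp4f39 (0.22) and Ugcg (0.30). Relative to the suprabasal mean, also chosen after seeing the data, the same 6 turned: Abca12 (0.20), Cers3 (0.20), Elovl4 (0.33), Pnpla1 (0.27), Cyp4f39 (0.14) and Ugcg (0.21). Both divisors had lower fitted levels in IL-33 KO, which moves all 9 genes up by nearly the same amount. Why the divisors were lower was not tested.

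Over all genes 3 were called, 2 higher and 1 lower in IL-33 KO. This count was 5 with upper quartile scaling, with total counts (each 4 higher and 1 lower) and with a filter of 1 CPM in 3 libraries. It was 33 with a filter of 1 count, 11 in limma-voom, 233 in DESeq2 (186 higher, 47 lower), 15 with log2(FPKM + 1), 11 with log2(FPKM + 0.1), 6 with log2(FPKM + 1) unfiltered, 7 at an adjusted p of 0.1 and 13 without both IL-33 KO 1 and WT 3. With 1 library left out it ran from 2 to 24, the highest without WT 3. Libraries with the same replicate number did not deviate together (correlations of -0.26, -0.12 and -0.38 for numbers 1, 2 and 3), and none correlated best with its own number. With the replicate block 2 genes and 0 of the 9 were called.

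With 3 libraries a genotype, the 95% interval of Alox12b reached from -1.95 to -0.13, and those of the other 8 genes included 0. The depth of 20459574 counts or more left each of the 9 genes with at least 351 counts in every library.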
